A study of Rattus norvegicus with 36 samples.

Results

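Spiny projection neurons, the GABA neurons that make up most of the striatum, were followed here through 5 genes of dopamine and adenosine signalling: Drd1, Drd2, Adora2a, Ppp1r1b and Rgs9. They are 5 of the 32623 genes in the deposited count files and were chosen by name: Drd1 is ENSRNOG00000023688, Drd2 ENSRNOG00000008428, Adora2a ENSRNOG00000001302, Ppp1r1b ENSRNOG00000028404 and Rgs9 ENSRNOG00000003800. All 5 passed the filter on low counts in every comparison. The RNA came from the nucleus accumbens (NAc), in the ventral striatum, and the prefrontal cortex (PFC) of 19 Sprague Dawley rats (written Sparague Dawley in the labels). Every rat had learned a gambling task with 4 light signals that carried rewards and punishments of different size and probability. By their settled choices 9 were called risk-averse and 10 risk-seeking, and there was no untrained group. The labels used here give neither age nor sex. The 36 libraries form 4 groups of 9, and 17 rats (9 risk-averse, 8 risk-seeking) gave both regions.

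Dopamine reaches spiny neurons through a pair of receptor classes with opposite coupling. The D1 receptor, encoded by Drd1, raises cyclic AMP and marks neurons of the direct pathway. The D2 receptor, encoded by Drd2, lowers it and marks neurons of the indirect pathway, which also carry the adenosine A2a receptor, encoded by Adora2a, that raises cyclic AMP. Ppp1r1b encodes DARPP-32, a protein phosphatase inhibitor switched on by protein kinase A in both neuron classes. Rgs9 encodes a regulator of G protein signalling whose striatal form shortens the signal of Gi-coupled receptors, the D2 receptor among them. The cortex holds fewer cells that express the dopamine receptors, and D2 receptor transcripts occur in other cell types too.

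Each library held between 18436025 and 34761269 counts over genes. The unassigned share, the part of uniquely aligned read pairs given to no annotated feature, ranged from 22.1% to 33.0% and moved with preference: it averaged 27.6% in risk-averse and 25.7% in risk-seeking NAc, and 25.01% and 23.3% in PFC. The NAc library of risk-averse rat B2 stood at the top of that range and had the lowest NAc level of 4 of the 5 genes (all but Rgs9). Several results that it sets or moves, among them region gaps and correlations, are therefore also given without it. Other values include it, among them the ranges, means and spreads of levels. The titles carry letter codes (B, BR, N and R) whose meaning the labels do not state. Each code holds both preferences, in numbers that differ by at most 1. Some levels differed between codes: Ppp1r1b in NAc was at 1306 (B2) to 1705 CPM in the 4 B rats and at 1728 to 2295 CPM in the 5 N rats. Others overlapped, such as Rgs9 in NAc, at 273 to 349 CPM in the B rats and 285 to 364 CPM in the N rats. Differences between codes were not tested. Genes appear in the files as Ensembl identifiers, which the RefSeq gene table used here does not list, so markers of other cell types and further genes of the pathway were not analysed here.

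Each of the 5 genes was far higher in NAc than in PFC, in 17 of 17 animals with both regions. Levels are in CPM, counts divided by library size and scaled between libraries by TMM. These levels are not per transcript length, so they are compared between regions and animals within a gene and not from gene to gene. In bulk tissue, fewer cells of a type and less RNA per cell cannot be told apart. Between regions 77.4% of the 15740 genes tested passed the quasi-likelihood test of edgeR (adjusted p under 0.05), 40.4% with the higher level in NAc and 37% with the higher level in PFC. This test did not pair the libraries of an animal. All 5 genes passed with the higher level in NAc, also with the animal as a block (edgeR adjusted p of 1.94e-19 or lower). A call alone thus sets them little apart, and the size of the difference is what the following values show. Their median log2 fold change was 4.70, against 0.02 over all genes tested, or 0.32 over all genes when the sign is left out.

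**Figure D1:**
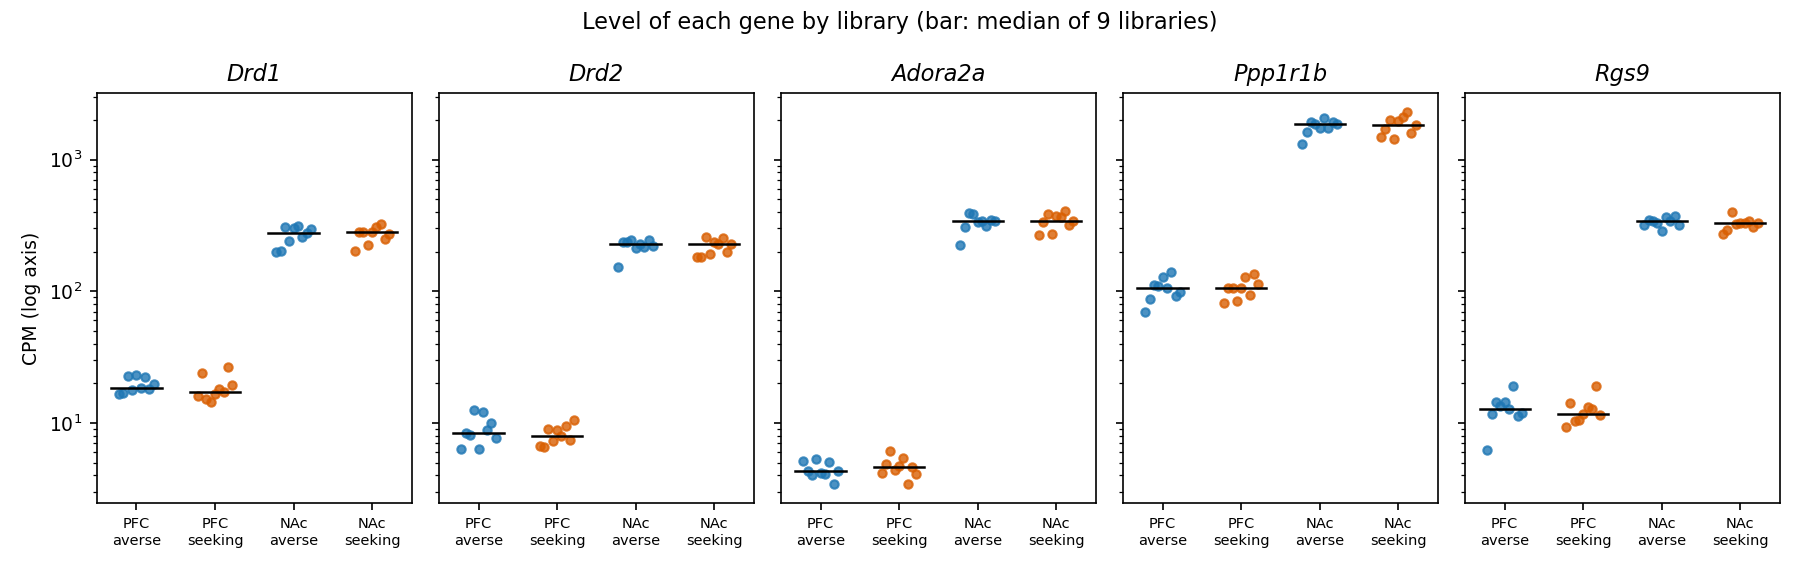
CPM of the 5 genes (log axis, 1 panel per gene) in each library of the 4 groups; bars are medians of 9 libraries, blue is risk-averse and orange risk-seeking. In every panel the NAc libraries lie above all PFC libraries, and the preference groups of a region overlap.

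The D1 receptor gene was at 198 to 324 CPM over the 18 NAc libraries (median 280) and at 14.5 to 26.8 CPM over the 18 PFC libraries (median 18.1). No library of one region reached the other: the lowest NAc library (B2) was 7.40 times the highest PFC library, and 7.48 times without B2. The log2 fold change of Drd1 was 3.82 ± 0.08 (SE), a 14.2-fold difference and the smallest among the 5 (edgeR adjusted p = 9.27e-33). Within animals the NAc level was from 10.2-fold (R2) to 18.6-fold (BR4) that in PFC.

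Drd2 was at 152 to 260 CPM in NAc (median 230) and at 6.31 to 12.6 CPM in PFC (median 8.17). Here the gap between the nearest libraries of the regions was 12.02-fold, or 14.5-fold without B2. The log2 fold change of Drd2 was 4.70 ± 0.09 (SE), a 26.0-fold difference (edgeR adjusted p = 3.56e-35), and the animals ranged from 19.1-fold to 33.9-fold.

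The adenosine A2a receptor gene was at 223 to 409 CPM in NAc (median 339) and only 3.43 to 6.17 CPM in PFC (median 4.36). Adora2a had the widest separation, with the lowest NAc library 36.2 times the highest PFC library (43.5 times without B2). Its log2 fold change was 6.22 ± 0.08 (SE), a 74.6-fold difference and the 34th highest of 15740 genes (edgeR adjusted p = 1.73e-40). With the animal as a block the edgeR adjusted p was 8.7e-27. The PFC values rest on 81 to 196 counts per library, for which counting alone gives a coefficient of variation of 9.35%, against 15.3% observed.

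Ppp1r1b was at 1306 to 2295 CPM in NAc (median 1843) and at 69.98 to 139 CPM in PFC (median 106). The log2 fold change of this DARPP-32 gene was 4.11 ± 0.08 (SE), or 17.2-fold (edgeR adjusted p = 9.02e-34). Rgs9 was at 273 to 400 CPM in NAc (median 331) and at 6.27 to 19.2 CPM in PFC (median 12.2). Over all libraries of a region it was the tightest of the 5 genes in NAc and the most variable in PFC. Its coefficient of variation was 9.21% and 24.3%, and its highest PFC library (R2) held 3.06 times the lowest (B2). The next lowest PFC library was at 9.33 CPM (B5), and the order of the genes in PFC was not taken without B2. Over genes of at least 5 CPM the median coefficient was 10.1% in NAc and 10.9% in PFC. The log2 fold change of Rgs9 was 4.73 ± 0.09 (SE), or 26.5-fold (edgeR adjusted p = 2.86e-34).

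Of the other genes, Drd1, Adora2a, Ppp1r1b and Drd2 varied between NAc libraries by 12.96% to 15.3% of their mean, above the median gene, and between PFC libraries by 15.3% to 21.4%. Counting error gave 1.29% or less for each of the 5 genes in NAc, so nearly all of the spread there lies between libraries. In PFC it gave 1.94% for Ppp1r1b, 4.54% for Drd1, 5.68% for Rgs9 and 6.87% for Drd2.

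What remained in PFC differed between the genes. With each rat's PFC level expressed as a percentage of its own NAc level, Drd1 was at 7.29% ± 1.24 (SD, n = 17), Ppp1r1b at 5.93% ± 0.884, Rgs9 at 3.87% ± 1.01, Drd2 at 3.87% ± 0.649 and Adora2a at 1.40% ± 0.304 (SD, n = 17 each). Drd1 stood above Drd2, Rgs9 and Adora2a in 17 of 17 animals, and above Ppp1r1b in 16. The percentage for Adora2a was below those of Drd1, Drd2 and Ppp1r1b in 17 of 17 animals and below that of Rgs9 in 16. Drd2 and Rgs9 could not be ordered, with Drd2 the higher in 10 of 17. The pair of markers of indirect-pathway neurons thus kept unequal shares of their NAc level in cortex.

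**Figure D2:**
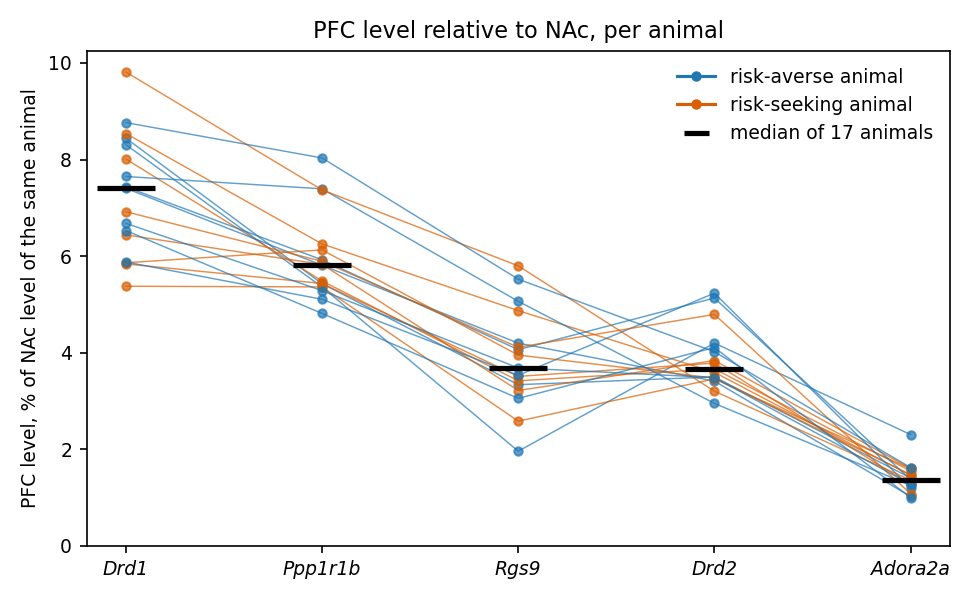
PFC level as a percentage of the NAc level of the same animal (vertical axis) for the 5 genes, 1 line per animal, with the median of 17 animals as a black bar. Medians fall from 7.40% for Drd1 to 1.37% for Adora2a, and the lines of risk-averse and risk-seeking animals are intermingled.

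RefSeq promoter windows were held for 3 of the 5 genes by symbol (Drd1, Drd2 and Rgs9, build GRCr8, which is not the build of the counts). Those of Drd2 and Rgs9 are printed, and that of Drd1 is not, for the reason given below. A relation of these sequences to the levels was not tested. Each line gives the 250 bases before the annotated start, 5′ to 3′ on the gene's strand, with GC boxes (GGGCGG on either strand) in capitals. The Drd2 window is chr8:58605153-58605402 on the + strand and the Rgs9 window chr10:94770388-94770637 on the - strand.
Drd2: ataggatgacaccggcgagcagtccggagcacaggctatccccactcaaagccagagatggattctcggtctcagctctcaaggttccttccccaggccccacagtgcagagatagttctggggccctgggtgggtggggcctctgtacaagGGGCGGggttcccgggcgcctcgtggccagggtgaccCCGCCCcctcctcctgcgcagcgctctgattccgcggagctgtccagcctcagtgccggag
Rgs9: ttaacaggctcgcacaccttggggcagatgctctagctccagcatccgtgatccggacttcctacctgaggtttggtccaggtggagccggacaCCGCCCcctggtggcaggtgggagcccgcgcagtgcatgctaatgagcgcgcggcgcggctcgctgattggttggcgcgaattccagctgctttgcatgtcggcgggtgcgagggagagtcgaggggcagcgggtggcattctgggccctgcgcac

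The Drd2 window holds GC boxes 98 bases before the start on the gene's own strand and 61 bases before it on the other strand, and the Rgs9 window holds 1, at 156 bases on the other strand. Of 33469 rat promoter windows of this length, 30.5% hold at least 1. The cyclic AMP response element TGACGTCA (1.59% of all windows), its shorter core TGACG, which the full element contains (18.2%), and the TATA box letters TATAAA (12.9%) were searched on both strands and are not in any of the 3 windows. GC content was 66.0% for Drd2 and 65.6% for Rgs9, against a median of 51.2% over all windows and 51.2% for Drd1. The Drd1 window has none of the 4 motifs. It lies inside the outer bounds of the gene, since the table places its start 1116 bases downstream of the outermost transcript start, and is not printed.

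The next question was whether any of the genes differed between risk-seeking and risk-averse rats. None of the 5 passed the test in either region. In PFC 23.3% of 15128 genes passed the same edgeR test for preference (11.8% with the higher and 11.4% with the lower level in risk-seeking animals), against 0 of the 5. In NAc 0 of 15418 genes passed (0%), with 2748 at an unadjusted edgeR p under 0.05, none of them among the 5 (DESeq2 called 566 genes in NAc, also none of the 5). The PFC background itself was not stable: 3521 genes passed in the design as given, 2264 without risk-averse rat B3, 330 with the unassigned share as a covariate, 0 and 1 with the ambiguous and not-uniquely aligned shares, and 1 without the 4 rats of highest unassigned share in PFC, all 4 of which were risk-averse. The NAc count was 944 without risk-averse rat R9. In each of these fits 0 of the 5 genes passed, so little can be read from their count against 23.3%. The median log2 fold change of the 5 genes was -0.04 in PFC and 0.01 in NAc, beside 0.01 and -0.00443 over all genes tested.

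In NAc, Drd1 was at 198, 278 and 316 CPM (lowest, median and highest) in risk-averse and at 201, 282 and 324 CPM in risk-seeking animals. The groups covered nearly the same range, and the log2 fold change was 0.01 ± 0.10 (SE, 95% interval -0.19 to 0.21, edgeR adjusted p = 0.959). Drd2 was at 152, 230 and 246 CPM in risk-averse and at 183, 230 and 260 CPM in risk-seeking NAc. Its log2 fold change was -0.03 ± 0.09 (SE, 95% interval -0.21 to 0.14, edgeR adjusted p = 0.879), and -0.09 without B2 (adjusted p = 0.578). Adora2a ran from 223 to 392 CPM (median 339) in risk-averse and from 268 to 409 CPM (median 341) in risk-seeking NAc, a log2 fold change of 0.03 ± 0.09 (SE, 95% interval -0.16 to 0.22). The receptor genes thus overlapped almost fully between the groups in the region where they are abundant.

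The signalling genes gave similar values. Ppp1r1b was at 1306, 1851 and 2083 CPM in risk-averse and at 1440, 1834 and 2295 CPM in risk-seeking NAc, a log2 fold change of 0.03 ± 0.09 (SE, 95% interval -0.16 to 0.21). Rgs9 had the narrowest interval: it was at 285, 341 and 370 CPM and at 273, 331 and 400 CPM, a log2 fold change of -0.05 ± 0.06 (SE, 95% interval -0.18 to 0.08). The lowest edgeR adjusted p among the 5 genes in NAc was 0.712, for Rgs9. Without B2 all 5 NAc estimates lay below 0, from -0.09 for Drd2 to -0.02 for Ppp1r1b, with edgeR adjusted p of 0.578 or more. On the linear scale the NAc intervals ran from 0.865-fold at the lowest (Drd2) to 1.17-fold at the highest (Adora2a). They hold only for this fit, which has no covariate. With the unassigned share as a covariate the log2 fold change was -0.137 ± 0.0775 for Drd1 and -0.104 ± 0.0918 for Drd2 (SE). That of Rgs9 moved up, to -0.0199 ± 0.0674 (SE).

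The PFC values were lower and their intervals wider. Drd1 was at 16.5, 18.6 and 23.3 CPM in risk-averse and at 14.5, 17.2 and 26.8 CPM in risk-seeking PFC, a log2 fold change of -0.08 ± 0.11 (SE, 95% interval -0.31 to 0.14, edgeR adjusted p = 0.619). Drd2 had the estimate farthest from 0 of the 5, at 6.31, 8.31 and 12.6 CPM against 6.59, 7.998 and 10.47 CPM (log2 fold change -0.13 ± 0.13, SE, 95% interval -0.39 to 0.14, edgeR adjusted p = 0.508). That estimate ran from -0.05 (without BR9) to -0.18 (without B2) when single libraries were left out, and was -0.35 with the ambiguous share as a covariate (edgeR adjusted p = 0.764, unadjusted 0.0401) and -0.24 with the not-uniquely aligned share. For Adora2a the estimate was 0.06 ± 0.11, for Ppp1r1b 0.01 ± 0.12 and for Rgs9 -0.04 ± 0.16 (SE), with adjusted p from 0.710 to 0.965 in the same edgeR test. The PFC intervals reached down to 0.762-fold for Drd2 and up to 1.22-fold for Adora2a and Rgs9, so differences of that size are not excluded. As in NAc, these bounds hold only for the fit without a covariate. With the unassigned share as a covariate the log2 fold change was -0.317 ± 0.146 for Rgs9 and 0.135 ± 0.125 for Adora2a (SE).

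**Figure D3:**
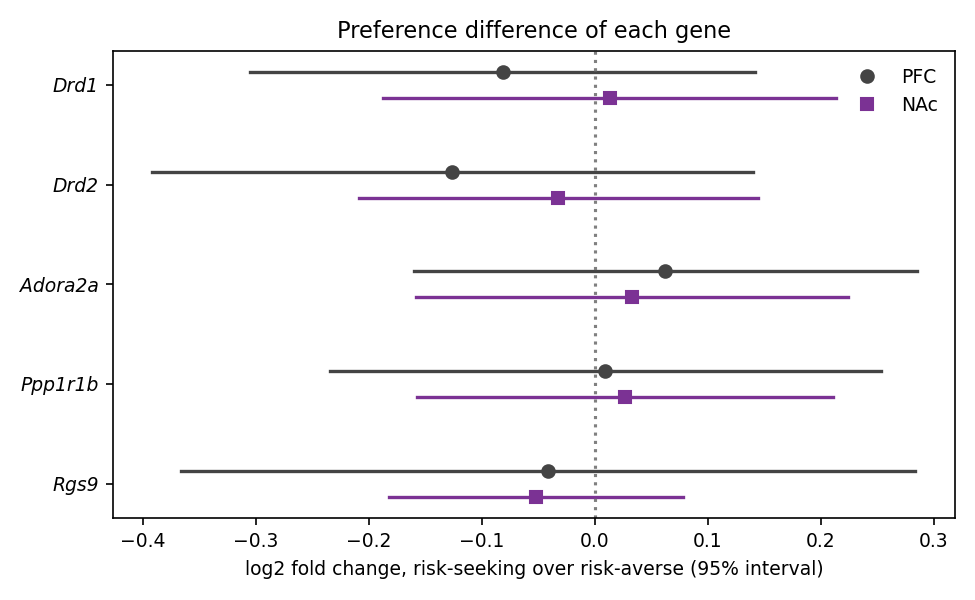
Log2 fold change of risk-seeking over risk-averse animals (horizontal axis) for each gene in PFC (circles) and NAc (squares), with 95% intervals from edgeR. All 10 intervals include 0, and those of PFC are wider for every gene.

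Adjusting for the unassigned share, which moved with preference, lowered 8 of the 10 estimates. None of the 5 genes passed, in a fit where 330 genes passed in PFC and 0 in NAc. In PFC the log2 fold change of Rgs9 went from -0.04 to -0.32 (edgeR adjusted p = 0.204, unadjusted 0.0417), that of Drd1 from -0.08 to -0.24 (adjusted p = 0.196, unadjusted 0.0381) and that of Ppp1r1b from 0.01 to -0.21 (adjusted p = 0.227, unadjusted 0.0520). In NAc Drd1 went from 0.01 to -0.14 (edgeR adjusted p = 0.492). Across NAc libraries Drd1 was lower where that share was higher (r = -0.687, permutation p = 0.00140, adjusted p = 0.0280 over 20 relations; rho = -0.610, permutation p = 0.00830). Without the 2 libraries of the most extreme share r was -0.423, so the relation rests in part on them. Ppp1r1b in PFC had r = -0.626 (permutation p = 0.00491, adjusted p = 0.0491; rho = -0.476, permutation p = 0.0492) and -0.274 without the 2 libraries. Adora2a (r = -0.609) and Ppp1r1b (r = -0.569) in NAc and Rgs9 in PFC (r = -0.565) did not pass over the 20 relations, with adjusted permutation p of 0.0660, 0.0660 and 0.0910. The part of the unassigned share in the levels was not tested.

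The preference difference was also compared between regions. No gene passed this interaction test (0% of 15936, 387 at an unadjusted edgeR p under 0.05). For the 5 genes the difference in NAc minus that in PFC ran from -0.04 ± 0.15 (Adora2a) to 0.09 ± 0.15 (Drd1) on the log2 scale (SE), with edgeR adjusted p of 0.981 or more.

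The balance of Drd1 to Drd2 was then taken within each library as the ratio of their counts, which no scaling between libraries can change. The ratio is not corrected for transcript length, so only differences between libraries can be read from it, not its distance from 1. In NAc the ratio ran from 0.848 (B3) to 1.53 (B9), with a median of 1.23. In PFC it ran from 1.41 (BR9) to 3.68 (N6), with a median of 2.15. The balance was thus tilted further toward Drd1 in cortex.

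Within animals the log2 balance was lower in NAc by a mean of 0.909, since the difference NAc minus PFC was -0.909 ± 0.0899 (SE, n = 17 animals, 95% interval -1.10 to -0.72). All 17 animals had the lower ratio in NAc (0 had it higher), from a log2 difference of -0.17 in N7 to -1.61 in R2, and a permutation of signs within animals gave p = 3e-05. The log2 balance was also more spread in PFC, with an SD of 0.420 over 18 libraries against 0.202 in NAc.

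Balances with Adora2a differed even more sharply between the regions. The Adora2a to Drd2 ratio was between 1.30 and 1.82 in the 18 NAc libraries and between 0.339 and 0.807 in the 18 PFC libraries, with no overlap. The Drd1 to Adora2a ratio was between 0.620 and 0.930 in NAc and between 2.47 and 5.78 in PFC. The Rgs9 to Ppp1r1b ratio was 0.148 to 0.245 in NAc and 0.0898 to 0.142 in PFC, again without overlap. These ratios are given as a description.

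Risk preference did not separate the Drd1 to Drd2 balance in either region. In NAc the log2 balance was 0.26 ± 0.25 in risk-averse and 0.30 ± 0.15 in risk-seeking rats (SD, n = 9 each), a difference of 0.05 (95% interval -0.16 to 0.26, exact permutation p = 0.630, two-sided; 0.963 when adjusted over the 2 regions). In PFC it was 1.16 ± 0.44 and 1.17 ± 0.42 (SD, n = 9 each), a difference of 0.00893 (95% interval -0.42 to 0.44, exact permutation p = 0.963, adjusted p = 0.963). The medians ran the other way, with 0.38 in risk-averse and 0.27 in risk-seeking NAc and 1.35 and 0.98 in PFC. The lowest NAc ratios, 0.848 in B3 and 0.973 in BR9, both came from risk-averse animals, and those of the risk-seeking animals began at 1.09. Without B3 the NAc difference turned to -0.0127.

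**Figure D4:**
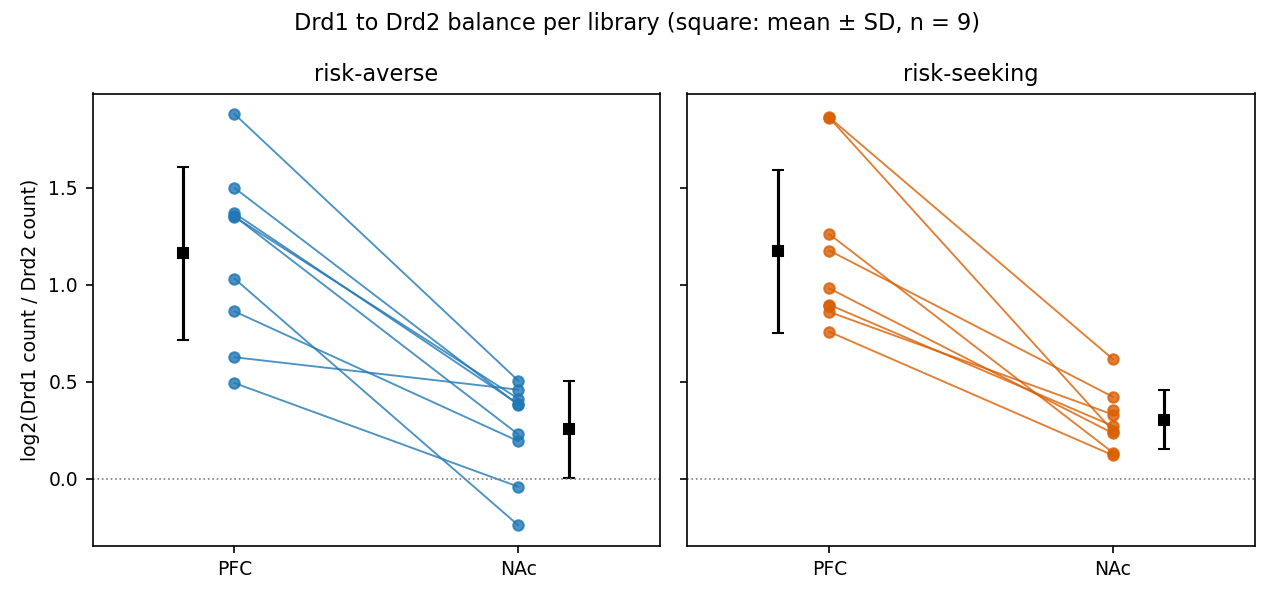
Log2 ratio of Drd1 to Drd2 counts (vertical axis) in PFC and NAc of risk-averse (left) and risk-seeking (right) animals; lines join the libraries of 1 animal, squares are means ± SD of 9 libraries. Every line falls from PFC to NAc, and the preference groups overlap in both regions.

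The genes were next compared across libraries of a region, by the correlation of log2 CPM over 18 libraries (20 pairs in all, permutation p with 100000 draws, of which the smallest possible value is 1e-05). Values from the same library share its scaling and depth, and several of these genes also moved with the unassigned share, as given above, whose part in the correlations was not tested. A correlation passes where its p adjusted over the 20 pairs is under 0.05. The correlations were also taken without the 4 rats of highest unassigned share in PFC, an alternative chosen after seeing the data. The pairs that pass below then had r from 0.708 to 0.896 in NAc and from 0.706 to 0.852 in PFC. In NAc, Drd2 and Adora2a, the markers of indirect-pathway neurons, had r = 0.876 (permutation p = 1e-05, adjusted p = 0.0001; rho = 0.827, permutation p = 4e-05) and r = 0.714 without the 2 libraries farthest from the median of Drd2, 0.783 without B2. Drd1 also went with Adora2a, at r = 0.780 (permutation p = 0.000170, adjusted p = 0.000567; rho = 0.715, permutation p = 0.00129), 0.620 without the 2 most extreme Drd1 libraries and 0.721 without B2. Among 11478 genes of at least 5 CPM in NAc, Adora2a was the 5th most alike to Drd2, while Drd1 was the 465th. Adora2a was the 494th most alike to Drd1, and Drd2 the 2185th. Drd1 and Drd2 themselves had r = 0.573 (permutation p = 0.0116, adjusted p = 0.0233) and rho = 0.418 (permutation p = 0.0854). Their r went to 0.228 without the 2 most extreme Drd1 libraries and to 0.414 without B2 (permutation p = 0.0973). Without the 4 rats of highest unassigned share in PFC, B2 among them, it was 0.708 (unadjusted permutation p = 0.00475). The size of this correlation thus depended on which libraries were included. Whether the correlations of these 3 pairs differ was not tested.

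Ppp1r1b, present in both neuron classes, went with all 3 receptor genes in NAc. Of 11478 genes compared there, it was the 3rd most alike to Adora2a, the 18th to Drd2 and the 155th to Drd1. It had r = 0.911 with Adora2a (permutation p = 1e-05; rho = 0.876, permutation p = 1e-05), 0.857 with Drd1 (permutation p = 1e-05; rho = 0.851, permutation p = 5e-05) and 0.839 with Drd2 (permutation p = 3e-05; rho = 0.740, permutation p = 0.000710), each with an adjusted p of 0.00012 or lower. Without the 2 most extreme libraries on the horizontal axis these were 0.850, 0.776 and 0.706, and without B2 0.875, 0.818 and 0.761. Of the 4 pairs with Rgs9 in NAc, the one with Drd2 passed (r = 0.639, permutation p = 0.00473, adjusted p = 0.0105; rho = 0.744, permutation p = 0.000630; r = 0.708 without the 2 libraries). The others did not pass, at r = 0.486 with Ppp1r1b (permutation p = 0.0420, adjusted p = 0.0763; rho = 0.612, permutation p = 0.00870), 0.403 with Adora2a (permutation p = 0.0971, adjusted p = 0.162; rho = 0.488, permutation p = 0.0412) and 0.266 with Drd1 (permutation p = 0.287, adjusted p = 0.441; rho = 0.313, permutation p = 0.207).

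In PFC the 3 pairs among Drd1, Ppp1r1b and Rgs9 passed, of which Drd1 with Ppp1r1b also passed in NAc. Their r was 0.871 for Ppp1r1b and Rgs9 (permutation p = 1e-05, adjusted p = 0.0001; rho = 0.798, permutation p = 0.000180), 0.746 for Drd1 and Rgs9 (permutation p = 0.000340, adjusted p = 0.000971; rho = 0.829, permutation p = 1e-05) and 0.685 for Drd1 and Ppp1r1b (permutation p = 0.00179, adjusted p = 0.00447; rho = 0.695, permutation p = 0.00183). They were 0.767, 0.670 and 0.672 without the 2 most extreme libraries, and 0.816, 0.841 and 0.701 without B2. Of 11314 genes compared in PFC, Ppp1r1b was the 6th most alike to Rgs9 and Drd1 the 58th. The 7 pairs with Drd2 or Adora2a did not pass, with r from -0.200 (Drd1 and Drd2, permutation p = 0.425; rho = -0.115, permutation p = 0.650) to 0.223 (Adora2a and Ppp1r1b, permutation p = 0.377; rho = 0.249, permutation p = 0.319). The correlations were not tested for a difference between the regions. Drd2 and Adora2a had r = -0.104 in PFC (permutation p = 0.683; rho = -0.181, permutation p = 0.472), where their counts were low.

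Because some levels differed between the title codes, the correlations were repeated on deviations from the code means, with values permuted within a code. In PFC the 3 pairs that had passed did so again (r = 0.856, 0.771 and 0.783, adjusted permutation p of 0.00125 or lower). In NAc, Ppp1r1b again passed with Adora2a (r = 0.897), Drd2 (r = 0.796) and Drd1 (r = 0.689), and Drd2 with Adora2a (r = 0.793), with adjusted permutation p of 0.0167 or lower. The pairs Drd1 with Adora2a (r = 0.657, adjusted permutation p = 0.104), Drd2 with Rgs9 (r = 0.552, adjusted permutation p = 0.107) and Drd1 with Drd2 (r = 0.277, adjusted permutation p = 0.639) did not pass within codes.

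**Figure D5:**
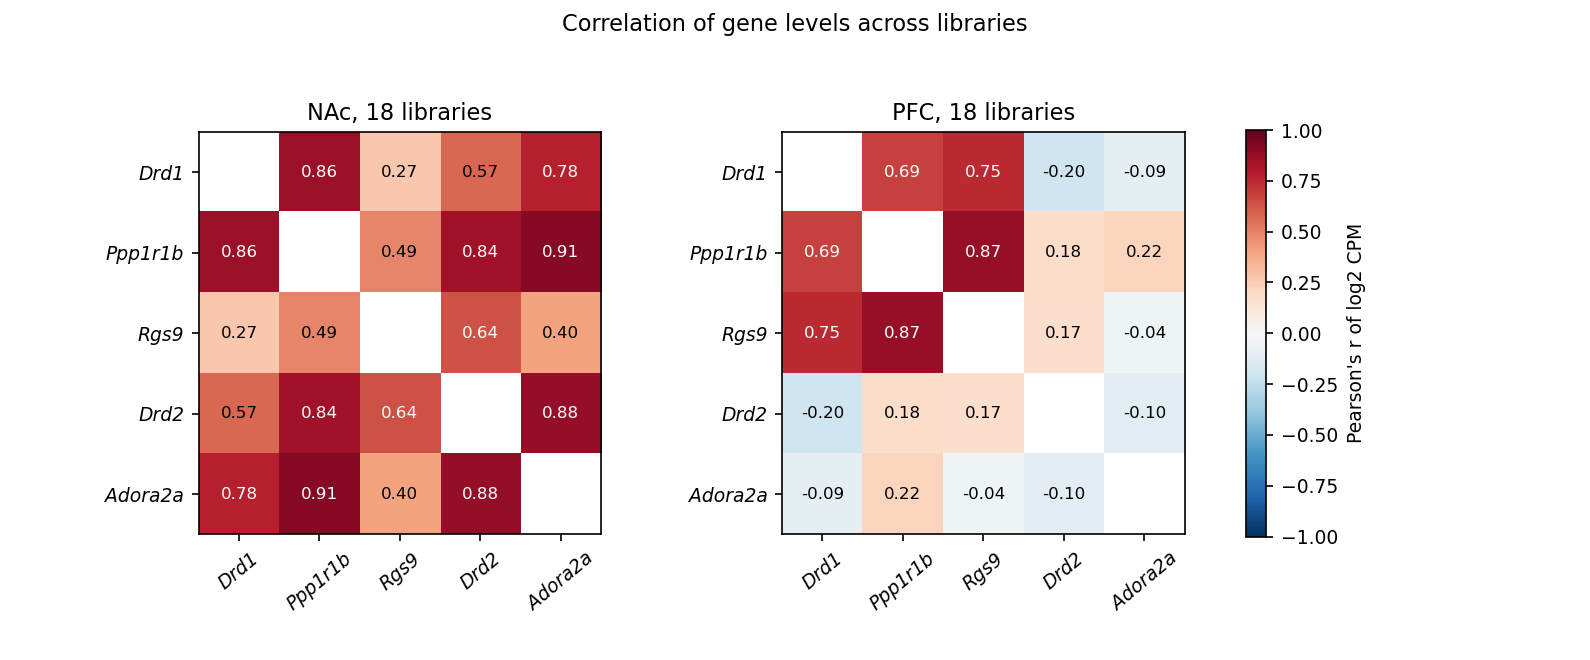
Pearson's r of log2 CPM for each pair of genes over 18 NAc (left) and 18 PFC (right) libraries, as colour and number. In NAc all pairs are above 0, with 0.88 for Drd2 and Adora2a; in PFC the high values are those among Drd1, Ppp1r1b and Rgs9.

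For Ppp1r1b and Drd2 the level in one region went with that in the other. Over 17 animals with both regions, the PFC level of Ppp1r1b correlated with its NAc level at r = 0.671 (permutation p = 0.00333, adjusted p = 0.0200 over 6 relations; rho = 0.512, permutation p = 0.0382), and 0.626 without the 2 most extreme animals. For Drd2 r was 0.622 (permutation p = 0.00806, adjusted p = 0.0242; rho = 0.691, permutation p = 0.00276), and 0.661 without them. The relation did not pass for Drd1 (r = 0.479, permutation p = 0.0510, adjusted p = 0.0765; rho = 0.498, permutation p = 0.0430), nor for the Drd1 to Drd2 balance (r = 0.498, permutation p = 0.0414, adjusted p = 0.0765; rho = 0.478, permutation p = 0.0549). Adora2a (r = 0.108, permutation p = 0.680; rho = 0.137, permutation p = 0.602) and Rgs9 (r = 0.0378, permutation p = 0.885; rho = 0.0172, permutation p = 0.951) gave values near 0. On deviations from the title code means none of the 6 relations passed. There r was 0.446 for Ppp1r1b (permutation p = 0.0904, adjusted p = 0.136) and 0.461 for Drd2 (permutation p = 0.0512, adjusted p = 0.102). It was higher than the pooled r for Drd1 (0.619, permutation p = 0.0300, adjusted p = 0.0900) and for the Drd1 to Drd2 balance (0.564, permutation p = 0.00911, adjusted p = 0.0547). Without the 2 most extreme animals r on these deviations was 0.133 for Ppp1r1b, 0.542 for Drd2, 0.276 for Drd1 and 0.686 for the balance. Without B2 the pooled r was 0.525 for Ppp1r1b and 0.569 for Drd2.

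The genes most like the dopamine receptors over the NAc libraries can be named only by identifier. Closest to Drd1 was ENSRNOG00000010440 (r = 0.955 over 18 libraries), which averaged 391 CPM in NAc and 38.8 CPM in PFC. Closest to Drd2 was ENSRNOG00000051487 (r = 0.905), at 85.5 and 15.3 CPM. Both were chosen as the highest of 11478 correlations and are given as a description.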

How the data were processed

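The authors deposited unnormalized read counts, as integers, for 32623 Ensembl genes. The 5 HTSeq summary rows of each library were kept out of library sizes. Per the submitters' processing notes, Trimmomatic, STAR 2.5.3a, HTSeq 0.9.0 and edgeR were used with Rnor_6.0 and rn6. Neither annotation release nor strand setting is named there, so reads of overlapping genes cannot be told apart. After filterByExpr and TMM scaling, all remaining genes entered the robust quasi-likelihood fit of edgeR 4.0.16 in R 4.3.3, with Benjamini-Hochberg adjustment and a threshold of 0.05. Preference was tested within a region, and region over all 36 libraries with preference as a covariate. Each SE was obtained by dividing the fold change (log2, unsigned) by the root of its F statistic. Log2 CPM used a prior count of 2, and balances 0.5 count. Tests were checked on simulated counts.

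Within groups, pairs of libraries had a chi-square of 6.97 to 44.9 per degree of freedom, above sampling noise, and none was treated as a repeat. Titles name the animals that pair regions. The deviations of their libraries correlated at 0.129 to 0.550, and 16 of 17 NAc libraries correlated best with their own animal's PFC library. The text names the 5 genes in every comparison and the gene most like Drd1 and Drd2 in NAc. The members and lists were chosen with earlier results of these data known. A pathway list and marker lists were not analysed here for want of symbols. Alternatives were RLE factors, DESeq2 1.42.0, limma-voom (limma 3.58.1), no filter, a covariate (the letters of the title code, or the share of read pairs that was unassigned, ambiguous between genes, or not uniquely aligned), all libraries in 1 fit, the animal as a block, and leaving out libraries or animals.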

Additional observations from a re-analysis of the deposited data

Results flagged for a closer look

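Each gene level and count ratio was examined within each of the 4 groups of 9 libraries, which gave 36 sets of values. In 5 sets a library lay far from the others by Dixon's criterion, where about 1.8 would arise by chance in independent sets. The sets are not independent, since the ratios reuse the counts of the genes and each library enters several sets. The NAc library of risk-averse rat B2, with an unassigned share of 33.0%, held Drd2 at 152 CPM against 214 to 246 CPM in the other risk-averse rats, and Adora2a at 223 CPM against 309 to 392 CPM. The PFC library of the same rat had an Rgs9 to Ppp1r1b count ratio of 0.0898, against 0.113 to 0.136. In risk-seeking PFC, rat R2 held Rgs9 at 19.2 CPM against 9.33 to 14.2 CPM. In risk-seeking NAc, rat B9 had an Adora2a to Drd2 count ratio of 1.82, against 1.43 to 1.61.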

How the results depend on the processing

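The region differences of all 5 genes kept their direction and call under 6 alternatives; with the animal as a replicate block the log2 fold change of Drd1 was 3.82. Under preference and interaction no alternative called any of the 5 genes (310 values, lowest adjusted p = 0.196). Estimates near 0 changed sign as follows, and the cause was not tested. In PFC, Ppp1r1b was at -0.143 without the 4 animals of highest unassigned share (all risk-averse, which leaves 5 risk-averse rats), -0.207 with that share as a covariate and -0.0406 with the not-unique share, while with the ambiguous share Drd1 was at 0.0807 and Rgs9 at 0.0716. In NAc, Drd1, Adora2a and Ppp1r1b were at -0.140, -0.0213 and -0.0434 without those animals and at -0.137, -0.0883 and -0.0864 with the unassigned share; Drd1 and Adora2a were at -0.000616 and -0.0250 with the ambiguous share, and Drd1 and Ppp1r1b at -0.0526 and -0.0108 with the not-unique share. The interaction of Rgs9 was 0.00157 with RLE factors, 0.00309 with DESeq2 and 0.196 without the 4 animals, and that of Ppp1r1b -0.00402 with limma-voom and -0.0144 with the replicate block. Leaving out each library gave ranges of -0.04998 to 0.0705 (Ppp1r1b) and -0.140 to 0.0486 (Rgs9) in PFC, and -0.0330 to 0.0587 (Drd1), -0.0258 to 0.0712 (Adora2a) and -0.0211 to 0.0634 (Ppp1r1b) in NAc. The preference difference in Drd1 to Drd2 balance was -0.0946 in NAc and -0.170 in PFC without the 4 animals, -0.110 and -0.369 as a difference of medians, and -0.0127 to 0.0804 and -0.0774 to 0.0985 leaving out each library, with exact permutation p of 0.248 or more. Its region difference stayed between -0.955 and -0.864.

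Counts of genes called over the whole table moved more: for PFC preference from 3521 to 330, 0 and 1 with the unassigned, ambiguous and not-unique shares, 1 without the 4 animals and 2264 without B3; for NAc preference from 0 to 566 with DESeq2 and 944 without R9; for the interaction from 0 to 1 with the block. Among correlations, by alternatives chosen after seeing the data, Drd2 and Rgs9 in PFC went from 0.174 to -0.0684 without B2 and -0.0750 without the 4 animals, and Adora2a and Rgs9 from -0.0426 to 0.145 and 0.0638. In NAc Adora2a and Rgs9 had r = 0.551 without the 4 animals (unadjusted permutation p = 0.0378). On deviations from title code means, also chosen after seeing the data, Drd1 and Adora2a in PFC were at 0.0925, Drd2 at -0.131 with Ppp1r1b and -0.0732 with Rgs9, and Adora2a and Rgs9 at 0.118. With the title code as a covariate no preference estimate changed sign. Low PFC counts limit Adora2a most.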
